A study of Mus musculus with 6 samples.

Results

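Mast cells and basophils are granulocytes that carry the high-affinity IgE receptor and store histamine and proteases in their granules. In all, 9 genes of these cells were followed in RNAseq of M-MDSCs, the monocytic subset of myeloid-derived suppressor cells: Cpa3, Mcpt8, Prss34, Hdc, Kit, Fcer1a, Ms4a2, Gata2 and Il4. They are 9 of the 34745 genes in the deposited count table. The members were chosen by name, with the counts of the mTOR-/- and WT libraries already known, so their differences between the groups are given as a description and without a test. The question was how RNA of these lineages differed between M-MDSCs with and without mTOR.

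The libraries came from bone marrow M-MDSCs of C57BL/6 mice, 3 of them WT and 3 from Lyz-mTOR mice, here called mTOR-/-. In Lyz-mTOR mice Cre driven by the lysozyme gene deletes floxed mTOR in myeloid cells, and other cells keep mTOR. The labels call the control genotype mTOR WT, and the study's methods say that WT C57BL/6 mice were purchased while the Lyz-Cre and floxed lines came from another laboratory. Littermate or Cre-only controls are not mentioned, so mTOR loss, Cre and the origin of the mice cannot be told apart here. Age and pooling of animals are not given in the sources used here. The series text says that the M-MDSCs were induced, which the study's methods describe as marrow culture with GM-CSF and IL-6, while the labels speak of freshly sorted cells. No source ties replicate numbers to separate animals, so the errors given here measure the spread between libraries.

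Both lineages arise from marrow progenitors under the factor GATA2, and mast cells depend on KIT, the receptor for stem cell factor. Basophils express the proteases MCPT8 and PRSS34 and release IL-4. Mature mast cells of connective tissue and mucosa are marked by chymases and tryptases of their own. In the M-MDSC libraries the proteases of mature mast cells were at or near 0: Cma1, Mcpt1, Mcpt2, Mcpt4, Mcpt9 and Tpsab1 had 0 counts in every library, which allows up to 0.203 to 0.244 CPM (3 counts per library, counting error only). The tryptase gene Tpsb2 had 7, 0 and 5 counts in mTOR-/- M-MDSCs and 16, 18 and 23 in WT M-MDSCs. The 9 members, by contrast, were all detected in every library.

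Total counts were 12317507 to 12903191 in mTOR-/- M-MDSCs and 14066578 to 14768126 in WT M-MDSCs. Levels are given as CPM, read counts scaled by library size after edgeR's TMM normalization, or as deposited FPKM where genes are compared with each other. Mtor itself was at 72.4 ± 3.24 CPM (SD, n = 3) in mTOR-/- M-MDSCs and 65.2 ± 5.01 CPM (SD, n = 3) in WT M-MDSCs, so whole-gene counts of the targeted gene did not mark the genotype and directions rest on the labels. On the first principal component mTOR-/- replicate 3 stood apart from the other mTOR-/- libraries, at -59.7 against -16.7 and -11.1. M-MDSCs are defined as CD11b+ cells high in Ly6C and without Ly6G. Ly6c2 fell in mTOR-/- M-MDSCs (log2 fold change -0.999, adjusted p = 0.0426, edgeR's quasi-likelihood test), with 72.6 to 104 CPM against 115 to 226 CPM in WT. Ly6g rose past a fold of 2, as 1.04% of all genes tested did (log2 fold change 2.27, adjusted p = 0.0365, same test), with 10.7 to 15.2 CPM against 0.853 to 5.06 CPM in WT. Ly6c2 passed the adjusted p in 2 of 6 fits that each lacked 1 library (without mTOR-/- replicate 3 and without WT replicate 2) and Ly6g in 1 (without WT replicate 3). Of the other identity genes, Csf1r, Cd14 and S100a8 rose (log2 fold changes 0.50, 0.95 and 0.62, edgeR). Cd14 passed the adjusted p in all 6 fits that each lacked 1 library, Csf1r in 3 and S100a8 in 2. The 4 of 9 identity entries that did not pass included Itgam, Ccr2 and S100a9. Of the identity genes, Ly6c2 thus differed in the direction of most members and 4 others in the opposite direction. Their part in the members' differences was not tested.

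Of the 9 members, 8 were lower and 1, Fcer1a, was higher in mTOR-/- M-MDSCs. Every mTOR-/- library lay below every WT library for 6 members (Cpa3, Mcpt8, Hdc, Kit, Gata2 and Il4), and the same held for 13.9% of the 12537 genes that passed the low-count filter. The median log2 fold change was -1.05 over the members and 0.0049 over all genes tested. The thresholds used for all genes (adjusted p under 0.05 and a fold of at least 2) are given for the members as a description only, since the same contrast chose them. They took in 4 members, all lower (Cpa3, Hdc, Mcpt8 and Kit), and 0.654% of all genes tested in that direction. At any fold they took in 5 members, with Gata2, and 1.87% of all genes. Without mTOR-/- replicate 3, the library that stood apart, the members past both thresholds were Cpa3, Hdc, Kit and Il4. All 9 members passed the low-count filter. In bulk RNA, fewer cells of a type and less RNA per cell cannot be told apart.

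**Figure D1:**
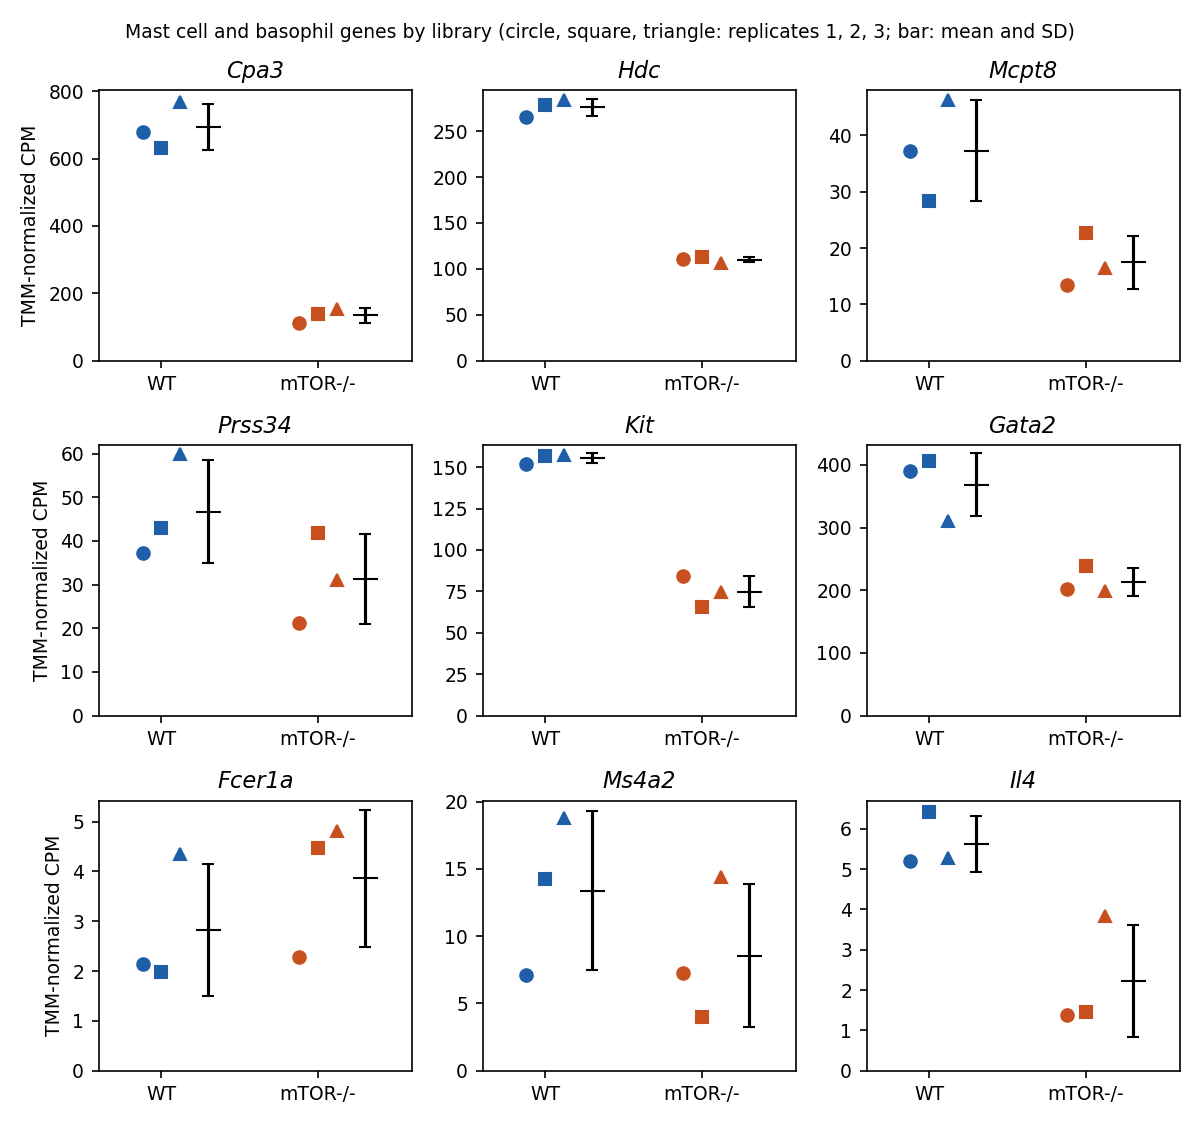
TMM-normalized CPM of each member (vertical axis, starting at 0) in the 3 WT and 3 mTOR-/- libraries, with symbols for replicate numbers and a bar for mean and SD. For Cpa3 the WT libraries sit at 632 to 769 CPM and the mTOR-/- libraries at 111 to 154 CPM, while the groups overlap for Prss34, Fcer1a and Ms4a2.

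Promoters are shown because GATA2, itself a member, is a known factor of both lineages, so its motif was looked for in them. Each is given 5′ to 3′ on the strand of its gene, from 250 bases before to 50 bases after the RefSeq start site on GRCm38.p6, and capitals mark matches to the GATA motif or the E-box spelled out further on.
Cpa3 promoter (chr3:20242132-20242431, - strand): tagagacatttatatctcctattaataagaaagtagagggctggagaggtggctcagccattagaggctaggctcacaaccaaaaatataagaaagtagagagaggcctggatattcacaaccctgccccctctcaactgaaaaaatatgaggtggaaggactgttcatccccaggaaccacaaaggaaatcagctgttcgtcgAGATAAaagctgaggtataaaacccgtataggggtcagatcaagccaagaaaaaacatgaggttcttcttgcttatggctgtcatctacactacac
Mcpt8 promoter (chr14:56085148-56085447, - strand): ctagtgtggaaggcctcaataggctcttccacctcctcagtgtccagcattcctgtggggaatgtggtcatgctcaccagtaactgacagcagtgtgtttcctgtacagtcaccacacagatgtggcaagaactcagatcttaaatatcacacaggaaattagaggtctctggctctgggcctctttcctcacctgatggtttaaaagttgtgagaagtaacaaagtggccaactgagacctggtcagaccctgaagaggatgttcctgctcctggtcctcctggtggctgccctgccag
Prss34 promoter (chr17:25298144-25298443, + strand): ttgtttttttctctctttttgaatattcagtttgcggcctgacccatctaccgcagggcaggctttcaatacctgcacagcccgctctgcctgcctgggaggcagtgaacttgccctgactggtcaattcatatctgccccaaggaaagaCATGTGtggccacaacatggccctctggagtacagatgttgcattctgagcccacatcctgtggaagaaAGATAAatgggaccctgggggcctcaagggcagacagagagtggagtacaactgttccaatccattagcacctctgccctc

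Cpa3 (ENSMUSG00000001865, mm10 chromosome 3, 20215620 to 20242181) encodes carboxypeptidase A3, a granule protease of mast cells, their progenitors and basophils. It was at 111, 139 and 154 CPM in mTOR-/- replicates 1, 2 and 3 and at 680, 632 and 769 CPM in the WT replicates. The lowest WT library was far above the highest mTOR-/- library, and no other member was as far apart. Cpa3 was 5.15-fold lower in mTOR-/- M-MDSCs (log2 fold change -2.37, SE 0.138), and 30 of the 12537 genes tested had a lower log2 fold change. In fits that each lacked 1 library, Cpa3 lay between -2.48 and -2.25 on the log2 scale.

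Mcpt8 (ENSMUSG00000022157, chromosome 14, 56082166 to 56085216) encodes a serine protease that marks mouse basophils. Its levels were 13.5, 22.6 and 16.4 CPM in mTOR-/- M-MDSCs and 37.2, 28.4 and 46.3 CPM in WT M-MDSCs. The groups did not overlap, but mTOR-/- replicate 2 came near WT replicate 2. The log2 fold change of Mcpt8 was -1.09 (SE 0.234), and it lay between -1.33 and -0.91 without 1 library.

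Prss34 (ENSMUSG00000056399, chromosome 17, 25298394 to 25300161) encodes another serine protease of basophils and of some mast cells. It stood at 21.2, 41.8 and 31.0 CPM in mTOR-/- M-MDSCs and at 37.2, 42.9 and 59.9 CPM in WT. Here mTOR-/- replicate 2 was above WT replicate 1, so the groups overlapped. The log2 fold change was -0.57 (SE 0.253), and it was -0.36 without mTOR-/- replicate 1 or without WT replicate 3. Mcpt8 and Prss34 shared their order within the mTOR-/- group, lowest in replicate 1 and highest in replicate 2. In WT both were highest in replicate 3, but Mcpt8 was lowest in replicate 2 and Prss34 in replicate 1. For each Mcpt8 count there were 1.58, 1.85 and 1.89 Prss34 counts in mTOR-/- M-MDSCs and 1.00, 1.51 and 1.29 in WT M-MDSCs. For Cpa3 the same ratio ran from 6.16 to 9.39 counts per Mcpt8 count in mTOR-/- and from 16.6 to 22.2 in WT. Both basophil proteases were thus less far below WT than Cpa3.

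Hdc (ENSMUSG00000027360, chromosome 2, 126593667 to 126619299) encodes histidine decarboxylase, the enzyme that makes histamine. Its promoter carried 1 match far from the start site.
Hdc promoter (chr2:126618629-126618928, - strand): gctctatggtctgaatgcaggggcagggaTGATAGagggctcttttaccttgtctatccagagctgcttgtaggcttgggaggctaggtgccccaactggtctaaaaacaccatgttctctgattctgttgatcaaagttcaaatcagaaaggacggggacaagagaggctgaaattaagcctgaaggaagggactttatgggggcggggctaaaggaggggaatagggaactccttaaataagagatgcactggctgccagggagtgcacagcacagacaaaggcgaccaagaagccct

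The levels of Hdc were 111, 113 and 107 CPM in mTOR-/- M-MDSCs and 266, 278 and 284 CPM in WT M-MDSCs. Replicates lay close together and far from the other group, with the highest library 1.06 times the lowest in mTOR-/- and 1.07 times in WT. Hdc was 2.51-fold lower in mTOR-/- M-MDSCs (log2 fold change -1.33, SE 0.084), with a range of -1.36 to -1.31 when 1 library was left out. Cpa3 was lower still: there were 0.996 to 1.44 Cpa3 counts per Hdc count in mTOR-/- M-MDSCs and 2.27 to 2.71 in WT.

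The surface receptors differed among themselves. Kit (ENSMUSG00000005672, chromosome 5, 75574916 to 75656722), the receptor for stem cell factor, is also present on marrow progenitors. It was at 84.3, 65.5 and 74.9 CPM in mTOR-/- M-MDSCs and at 152, 157 and 157 CPM in WT. Every mTOR-/- library was well below the WT libraries, and Kit was 2.08-fold lower (log2 fold change -1.05, SE 0.11). Without mTOR-/- replicate 2 the log2 fold change was -0.98, just short of a fold of 2.

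Fcer1a (ENSMUSG00000005339, chromosome 1, 173221284 to 173227214) and Ms4a2 (ENSMUSG00000024680, chromosome 19, 11615523 to 11623719) encode the alpha and beta chains of the high-affinity IgE receptor. Their promoters held 1 and 3 matches to the GATA motif.
Fcer1a promoter (chr1:173227180-173227479, - strand): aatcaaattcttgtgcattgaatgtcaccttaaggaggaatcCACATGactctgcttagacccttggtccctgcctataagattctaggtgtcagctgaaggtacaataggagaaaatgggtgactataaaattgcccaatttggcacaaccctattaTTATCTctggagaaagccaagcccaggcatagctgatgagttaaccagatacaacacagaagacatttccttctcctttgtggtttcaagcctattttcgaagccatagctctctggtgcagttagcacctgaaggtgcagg
Ms4a2 promoter (chr19:11623670-11623969, - strand): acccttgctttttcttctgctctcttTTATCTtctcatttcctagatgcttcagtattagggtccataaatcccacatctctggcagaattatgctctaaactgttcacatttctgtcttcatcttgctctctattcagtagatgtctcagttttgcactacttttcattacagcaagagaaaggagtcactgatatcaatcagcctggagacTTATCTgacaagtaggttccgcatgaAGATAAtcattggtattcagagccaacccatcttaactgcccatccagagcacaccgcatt

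Fcer1a had 28, 58 and 63 counts in mTOR-/- M-MDSCs (2.28, 4.48 and 4.82 CPM) and 30, 29 and 61 counts in WT M-MDSCs (2.13, 1.98 and 4.35 CPM). Each group held a library near the other group's extreme, so the levels overlapped throughout. The log2 fold change of Fcer1a was 0.45 (SE 0.461), and it was the only member with a positive value. It ranged from 0.25 without WT replicate 2 to 0.90 without WT replicate 3, and it was 0.28 without WT replicate 1, 0.26 without mTOR-/- replicate 3 and 0.72 without mTOR-/- replicate 1. Ms4a2 was at 7.25, 4.01 and 14.4 CPM in mTOR-/- M-MDSCs and at 7.11, 14.3 and 18.8 CPM in WT. It had the widest spread within mTOR-/-, with replicate 3 at 3.58 times replicate 2, and its log2 fold change was -0.65 (SE 0.463). Leaving out mTOR-/- replicate 3 took that value to -1.26, and leaving out mTOR-/- replicate 2 or WT replicate 3 took it to -0.32. The Fc receptor gamma chain Fcer1g, which pairs with these chains and with other Fc receptors of myeloid cells, had 211 to 297 CPM in mTOR-/- and 295 to 299 CPM in WT (log2 fold change -0.18, SE 0.125, adjusted p = 0.434, edgeR). Fcer1a and Ms4a2 had the fewest counts beside Il4, and the largest SEs of the members.

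Gata2 (ENSMUSG00000015053, chromosome 6, 88193891 to 88207032) encodes the transcription factor that both lineages require and that blood stem and progenitor cells also express. It was at 202, 238 and 198 CPM in mTOR-/- M-MDSCs and at 389, 406 and 311 CPM in WT M-MDSCs. The groups did not overlap, and Gata2 was 1.73-fold lower (log2 fold change -0.79, SE 0.124). For each Gata2 count there were 0.275 to 0.417 Kit counts in mTOR-/- and 0.387 to 0.507 in WT, ranges that overlapped.

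Il4 (ENSMUSG00000000869, chromosome 11, 53602982 to 53618669) encodes interleukin 4, the type 2 cytokine of basophils, mast cells and T helper cells. It had 17, 19 and 50 counts in mTOR-/- M-MDSCs and 73, 94 and 74 counts in WT, or 1.39, 1.47 and 3.83 CPM against 5.19, 6.42 and 5.27 CPM. All WT libraries were above all mTOR-/- libraries, with mTOR-/- replicate 3 the nearest. The log2 fold change of Il4 was -1.33 (SE 0.444), and without mTOR-/- replicate 3 it was -1.98. The T cell genes Cd3e and Cd4 and the type 2 cytokine gene Il5 had 0 counts in every library. They are 3 of 7 T cell and ILC2 markers, and the others, among them Il7r and Rora, had counts. Which cells held the Il4 RNA was not tested. Il13, which lies in the same cytokine cluster, had 4, 10 and 0 counts in mTOR-/- M-MDSCs and 24, 28 and 11 in WT (log2 fold change -1.98, SE 0.900, adjusted p = 0.245, edgeR).

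**Figure D2:**
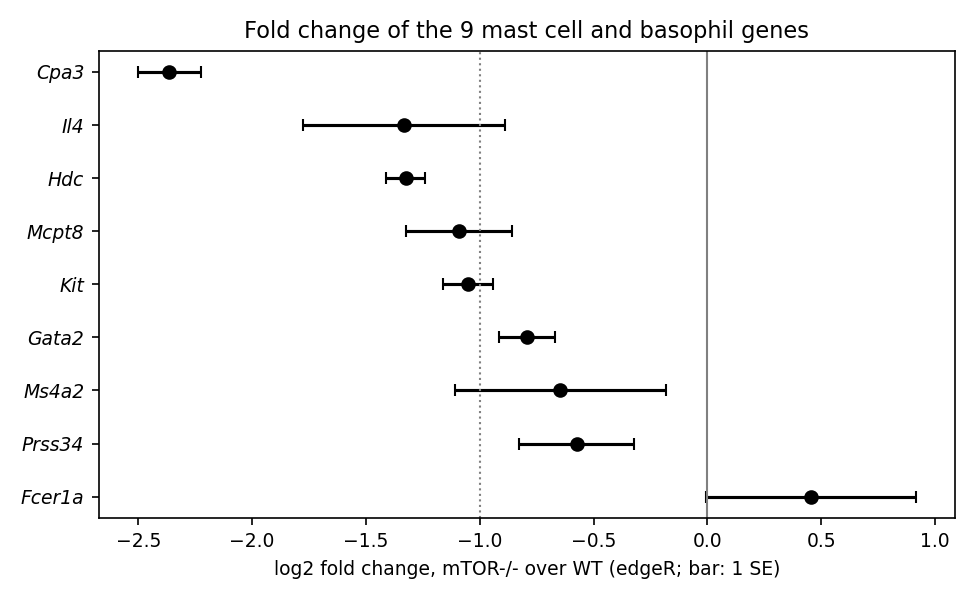
Log2 fold change of each member, mTOR-/- over WT, from the edgeR fit (horizontal axis), with bars of 1 SE and a dotted line at a fold of 2 lower. Cpa3 stands apart at -2.37, Hdc and Kit have short bars at -1.33 and -1.05, and Fcer1a is to the right of 0 at 0.45.

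Per length, the order of the members was led by Cpa3 in both groups. The lengths behind the deposited FPKM were 12958 bases for Kit, 8506 for Gata2, 7503 for Hdc and 4485 for Ms4a2. For the other members they were 855 (Mcpt8) to 1548 (Fcer1a), so the order depends on these lengths. By mean CPM in WT, Gata2, Hdc and Kit (368.5, 276 and 155) were above Prss34 and Mcpt8 (46.7 and 37.3). In WT, Cpa3 was at 454 ± 43.6 FPKM (SD, n = 3), followed by Mcpt8 at 43.3 ± 10.2, Gata2 at 43.0 ± 6.14, Prss34 at 38.05 ± 9.34 and Hdc at 36.5 ± 0.952 FPKM. Neighbours from Mcpt8 to Hdc overlapped in that order. Kit followed at 11.9 ± 0.150 FPKM, and Il4, Ms4a2 and Fcer1a were the lowest at 3.93 ± 0.477, 2.96 ± 1.29 and 1.80 ± 0.835 FPKM, with overlapping neighbours. In mTOR-/-, Cpa3 was at 89.3 ± 15.2 FPKM, and Prss34, Gata2 and Mcpt8 overlapped next to each other at 26.0 ± 8.67, 25.2 ± 2.66 and 20.6 ± 5.60 FPKM. Hdc came next at 14.8 ± 0.371 FPKM and Kit at 5.81 ± 0.689 FPKM. Fcer1a, Ms4a2 and Il4 closed the order at 2.51 ± 0.913, 1.92 ± 1.20 and 1.58 ± 0.996 FPKM, again overlapping with their neighbours. Il4 thus ranked above Fcer1a in WT and below it in mTOR-/-, in a range where neighbours did not separate.

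All 9 members matched RefSeq promoters, 12 in number because Kit, Gata2 and Il4 have 2 start sites each. The GATA motif was searched on both strands, with the letters AGATAA as its first form, the letters AGATAG as another, the letters TGATAA as the next and the letters TGATAG as the last. The E-box, a motif of MITF, a mast cell factor, was searched in the same way with the letters CACGTG as its first form and the letters CATGTG as the other. A GATA match and an E-box match can share bases at their ends. A GATA match stood in 7 of the 12 promoters, those of 6 members, and in 29.8% of 32851 promoters of the same length. An E-box match stood in 3 of the 12 (Fcer1a, Prss34 and 1 start of Il4), and in 20.4% of all. The match of Cpa3 began 46 bases before the start site and that of Prss34 31 bases before it. In Ms4a2 the 3 matches began 224, 37 and 11 bases before the start site, and in Hdc the match began 221 bases before it. The promoters of Kit, Gata2 and Mcpt8 held no match in this window. The promoters with an E-box match, of Fcer1a, Prss34 and 1 start of Il4, each held a GATA match too. Only this window was searched, and whether the motifs have a part in the members' differences was not tested.

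**Figure D3:**
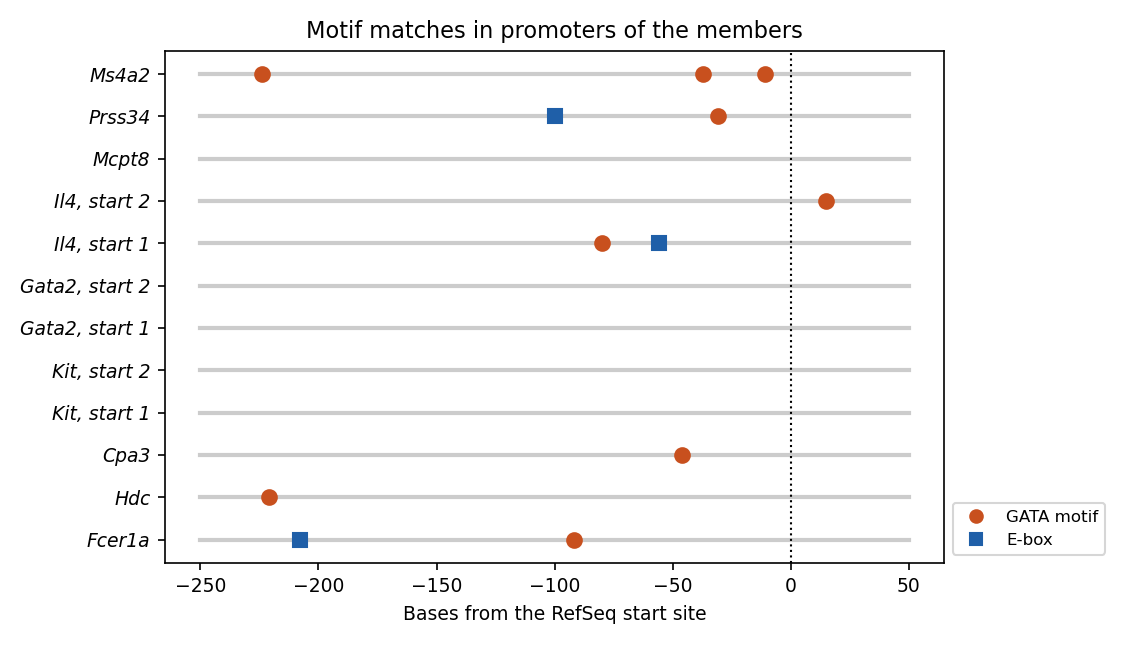
Positions of GATA motif and E-box matches in the 12 promoters of the members, in bases from the RefSeq start site (horizontal axis, 250 bases before to 50 after). Cpa3, Prss34 and Ms4a2 have a GATA match within 50 bases before the start, and Kit, Gata2 and Mcpt8 have none.

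Genes of these lineages outside the 9 were read from lists and tested with edgeR's quasi-likelihood test, adjusted over all 12537 genes. Of 10 other basophil genes, 9 were tested and 3 fell: Hgf, Cyp11a1 and Cd200r3. Of all genes, 1.87% fell and 2.18% rose by this test. Hgf and Cyp11a1 were also past a fold of 2, as were 0.654% of all genes in that direction. Cyp11a1, a steroid-making cytochrome P450 found in basophils and mast cells, had 150, 160 and 164 CPM in mTOR-/- M-MDSCs and 356, 349 and 345 CPM in WT. The groups were far apart beside their spread (log2 fold change -1.15, SE 0.0838, adjusted p = 0.000217, edgeR). Hgf, a growth factor made by basophils and also by other myeloid cells, had 263, 231 and 246 CPM in mTOR-/- and 666, 630 and 626 CPM in WT (log2 fold change -1.38, SE 0.0906, adjusted p = 0.000106, edgeR). Both calls held in all 6 fits that each lacked 1 library. Cd200r3, an activating receptor of basophils and mast cells, was at 116 ± 2.41 CPM (SD, n = 3) in mTOR-/- and 167 ± 26.5 CPM (SD, n = 3) in WT (log2 fold change -0.53, SE 0.121, adjusted p = 0.0445, edgeR). Cd200r3 passed in 1 of the 6 fits that each lacked 1 library (without WT replicate 1), with an adjusted p of up to 0.163 in the others. Every mTOR-/- library lay below every WT library for 7 of the 9 tested genes, beside 13.9% of all genes tested, and Il3ra, a chain of the IL-3 receptor, did not follow them (log2 fold change 0.04, SE 0.138). The most abundant gene of the list was Ifitm1, an interferon-induced membrane protein (692 ± 52.4 CPM in mTOR-/- and 886 ± 77.7 CPM in WT, SD, n = 3, adjusted p = 0.0958, edgeR). Ifitm1 passed the adjusted p with DESeq2 but not with edgeR's exact test.

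Of 17 other mast cell genes, 9 had 0 counts in every library and 7 were tested. Il1rl1, the receptor for IL-33, was the 1 that fell, from 16.3 ± 2.29 CPM (SD, n = 3) in WT to 7.36 ± 2.47 CPM (SD, n = 3) in mTOR-/- (log2 fold change -1.14, SE 0.267, adjusted p = 0.0477, edgeR). Il1rl1 passed in only 1 of 6 fits that each lacked 1 library (without mTOR-/- replicate 3), with an adjusted p of up to 0.169 in the others. Slc18a2, the vesicle transporter that loads histamine and other amines, was at 104 ± 26.0 CPM (SD, n = 3) in mTOR-/- and 160 ± 27.8 CPM (SD, n = 3) in WT (log2 fold change -0.62, SE 0.189, adjusted p = 0.105, edgeR). Slc18a2 did pass the adjusted p with DESeq2 and with edgeR's exact test. The median log2 fold change was -0.62 over the 7 tested mast cell genes and -0.53 over the 9 tested basophil genes. Hgf, Slc18a2 and Il1rl1 are also expressed by cells outside these lineages.

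**Figure D4:**
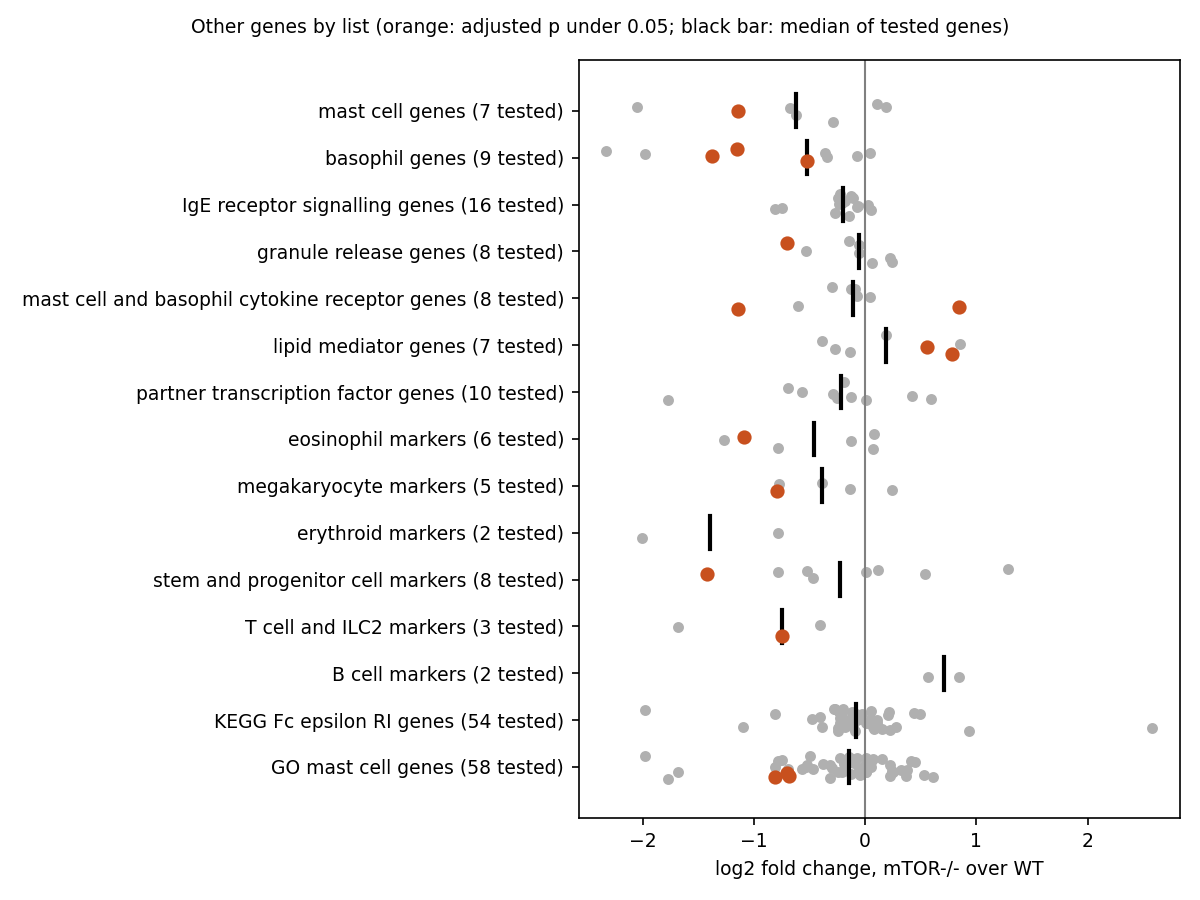
Log2 fold change, mTOR-/- over WT, of every tested gene outside the 9 members, by list (rows), with genes at an adjusted p under 0.05 in orange and the median of each list as a black bar. The basophil list has 3 orange points, all left of 0, and the IgE receptor signalling list has none and a median of -0.19.

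Genes that act with the IgE receptor inside the cell were read next. Of 16 genes that signal below the IgE receptor, such as Syk and Lat2, all were tested and 0 passed. At an unadjusted p under 0.05 there were 6, all lower. Lat2 passed the adjusted p with DESeq2 and with edgeR's exact test, but not a fold of 2. Counts at an unadjusted p, here and below, are a description, as the share of all genes at that p is not given. Syk, the kinase recruited by the receptor, had a log2 fold change of 0.05 (SE 0.0891). The KEGG pathway of Fc epsilon RI signaling held 59 genes outside the members, among them 15 of those 16, and 54 were tested with 0 passing (10 at an unadjusted p under 0.05; 2, Pik3cb and Pla2g4a, with DESeq2 and with edgeR's exact test). The median log2 fold change of that pathway was -0.08. Deposited GO terms named mast cells or basophils for 62 genes outside the members, of which 6 were among the 16 and 9 in the KEGG pathway. Of these 62, 58 were tested and 3 fell: Hmox1, Srgn and Adora2b. Hmox1, the heme-degrading oxygenase, had a log2 fold change of -0.81 (SE 0.117, adjusted p = 0.00642, edgeR), and Adora2b, an adenosine receptor, one of -0.69 (SE 0.153, adjusted p = 0.0399, edgeR) that passed in 0 of the 6 fits that each lacked 1 library. Srgn, the proteoglycan core that packs proteases and histamine in granules, was at 500 ± 14.1 CPM (SD, n = 3) in mTOR-/- and 812 ± 51.7 CPM (SD, n = 3) in WT (log2 fold change -0.70, SE 0.0909, adjusted p = 0.00384, edgeR). It was the 1 of 8 granule release genes that passed, and monocytes express it too. The vesicle fusion gene Stxbp2 had a log2 fold change of -0.06 (SE 0.112) in the same list.

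Among 9 cytokine receptor and ligand genes, 8 were tested, 1 fell (Il1rl1) and 1 rose. The gene that rose was Csf2ra, the GM-CSF receptor alpha chain (log2 fold change 0.84, SE 0.196, adjusted p = 0.0477, edgeR). Csf2ra passed in 2 of the 6 fits that each lacked 1 library (without mTOR-/- replicate 2 and without mTOR-/- replicate 3). Csf2rb, the chain shared by the receptors for IL-3, IL-5 and GM-CSF, had a log2 fold change of -0.09 (SE 0.108). Of 7 lipid mediator genes, 2 rose, the cyclooxygenases Ptgs1 (log2 fold change 0.78, adjusted p = 0.0244, edgeR) and Ptgs2 (log2 fold change 0.56, adjusted p = 0.0464, edgeR). Ptgs1 passed in 3 of the 6 fits that each lacked 1 library (not without mTOR-/- replicate 1, WT replicate 1 or WT replicate 3) and Ptgs2 in 1 (without mTOR-/- replicate 2). Hpgds, the prostaglandin D2 synthase of mast cells, had a log2 fold change of 0.18 (SE 0.177). Ltc4s of the same list was at 17.1, 11.9 and 14.8 CPM in mTOR-/- and 5.90, 10.4 and 7.83 CPM in WT. Its log2 fold change was 0.85 (SE 0.251, adjusted p = 0.0956, edgeR). With DESeq2 and with edgeR's exact test, Ltc4s passed the adjusted p as higher and Pla2g4a as lower, besides Ptgs1 and Ptgs2. Of 10 transcription factor genes that act beside GATA2, 0 passed (edgeR; 4 at an unadjusted p under 0.05, 2 in each direction; 2 with DESeq2 and 1 with edgeR's exact test). By log2 fold change, 7 of the 10 were lower and 3 higher. Gata1 had 5, 6 and 0 counts in mTOR-/- and 12, 12 and 19 in WT (log2 fold change -1.77, SE 0.873, adjusted p = 0.28, edgeR). Mitf had a log2 fold change of -0.29 (SE 0.138). Among the higher genes, Lyl1 had a log2 fold change of 0.42 (SE 0.126) and Lmo2 one of 0.59 (SE 0.258). The most abundant of these, Stat5b and Runx1, had log2 fold changes of -0.13 (SE 0.0908) and -0.19 (SE 0.137).

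Markers of other cell types were read beside the members, and their part in the members' differences was not tested. Of 9 eosinophil markers, 6 were tested and Prg2, the granule major basic protein that basophils also hold, fell (54.1, 33.7 and 38.2 CPM in mTOR-/- and 93.8, 85.3 and 89.5 CPM in WT, log2 fold change -1.09, adjusted p = 0.00899, edgeR). The summed level of the eosinophil list, which is mostly Prg2, was 57.8 to 84.0 CPM in mTOR-/- and 116 to 136 CPM in WT. The other 5 tested markers did not pass. Log2 fold changes were -0.78 for Prg3 (SE 0.273) and -1.27 for Epx (SE 0.428). Those of Siglecf, Ccr3 and Ear6 were -0.13 (SE 0.458), 0.08 (SE 0.685) and 0.07 (SE 0.279). Il5ra, a chain of the eosinophil IL-5 receptor, had 1 count over the 6 libraries. Of 8 stem and progenitor cell markers Ly6a fell (log2 fold change -1.42, adjusted p = 0.0072, edgeR), and the summed level of that list overlapped, at 153 to 216 CPM in mTOR-/- and 166 to 203 CPM in WT. Cd34 had a log2 fold change of 0.11 (SE 0.147). Of 8 megakaryocyte markers 5 were tested and Itga2b fell (log2 fold change -0.79, adjusted p = 0.0314, edgeR). Itga2b passed in 1 of the 6 fits that each lacked 1 library (without mTOR-/- replicate 3). The summed level of these markers was 605 to 722 CPM in mTOR-/- and 516 to 779 CPM in WT. Of 7 erythroid markers 2 were tested and 0 passed (edgeR; 1, Hbb-bs, at an unadjusted p under 0.05, with DESeq2 and with edgeR's exact test), with a summed level of 3.37 to 5.22 CPM in mTOR-/- and 9.09 to 10.8 CPM in WT. Of 7 T cell and ILC2 markers 3 were tested and Il7r fell (log2 fold change -0.74, adjusted p = 0.0136, edgeR), in 4 of the 6 fits that each lacked 1 library too (not without WT replicates 2 or 3). Their sum, which is mostly Il7r and Rora, was 63.4 to 93.3 CPM in mTOR-/- and 115 to 143 CPM in WT. Of 5 B cell markers 2 were tested and 0 passed (edgeR; 0 at an unadjusted p under 0.05 and 0 with DESeq2 or the exact test), at 3.32 to 6.93 CPM in mTOR-/- and 2.28 to 3.21 CPM in WT.

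The genes most alike to the members over the 6 libraries were found as those nearest to the median member profile in log2 CPM, each centred on its own mean. That profile was -0.65, -0.63 and -0.49 in mTOR-/- replicates 1, 2 and 3 and 0.50, 0.54 and 0.69 in the WT replicates. Of 12114 genes compared, Cyp11a1 was the nearest, with a root mean square difference of 0.0762, against a median of 0.626 over the compared genes. Lta4h, the leukotriene A4 hydrolase, followed at 0.105, and the heat shock and ubiquitin genes Hspa1a and Ubb stood at 0.118 and 0.137. The others of the first 10 were Fam46c, Angptl2, Hgf, Nrp1, Fgd6 and Ramp1, at 0.124 to 0.169. Among the members, each set against the median of the other members, Hdc was the nearest at 0.168 and Kit came next at 0.211. Fcer1a was the farthest at 0.934, and Cpa3, with its larger difference, stood at 0.688. The profile and these distances describe the same contrast that chose the members.

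**Figure D5:**
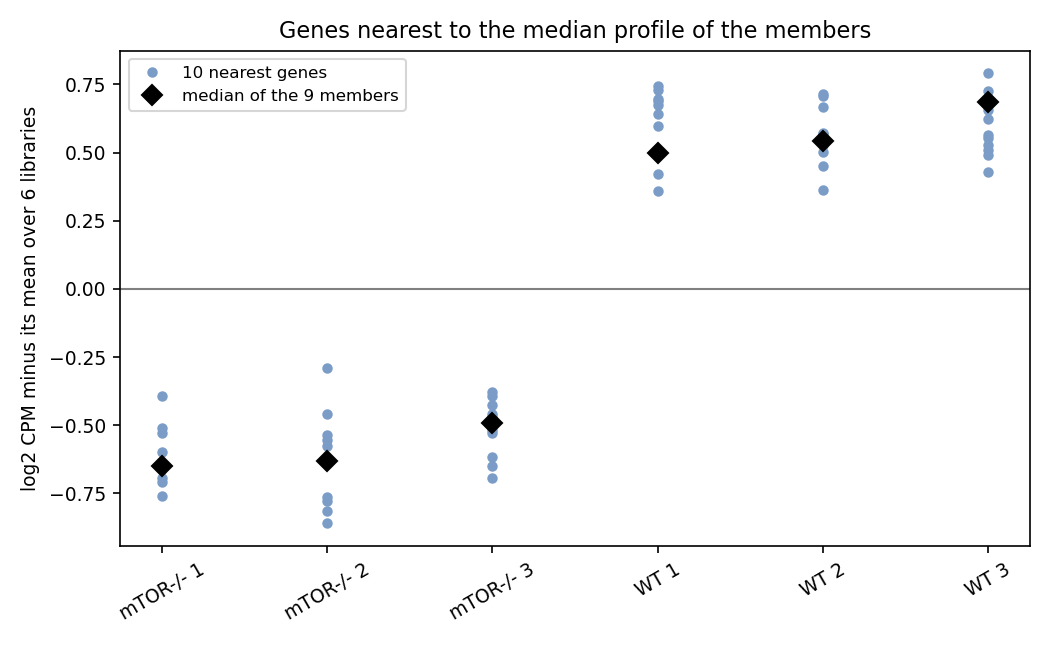
Log2 CPM minus its mean over the 6 libraries (vertical axis) for the 10 genes nearest to the members and for the median of the 9 members (diamonds), by library. The diamonds run from -0.65 to -0.49 in mTOR-/- and from 0.50 to 0.69 in WT, and the 10 genes lie around them.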

How the data were processed

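RNAseq reads of 3 mTOR-/- and 3 WT M-MDSC libraries were processed by the authors, who deposited raw counts per gene as whole numbers. Per the paper's methods, reads were aligned to mm10 with Bowtie2 and counted with HTSeq, whereas the submitters' processing notes name HISAT2 2.0.4 and StringTie 1.3.0. Annotation release and strand setting are not given in the sources used here, so overlapping genes may share reads; Cpa3 and Mcpt8 each contain a miRNA gene on their strand in GENCODE M21. The authors also deposited FPKM values, which equal counts divided by the library total and 1 fixed length per gene. The deposited GO and KEGG terms were used, and the authors' own comparison of the groups (fold changes, p-values and q-values) was not. A further 24 per-sample columns were not used.

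Counts were analysed in R 4.3.3 with edgeR 4.0.16 (filterByExpr, minimum count 10 and minimum total 15; TMM; quasi-likelihood F test; Benjamini-Hochberg adjustment over 12537 genes). Called genes had an adjusted p under 0.05 and a fold of at least 2. SEs are the log2 fold change over the square root of F. Log2 CPM used a prior count of 2, and no test of 3 libraries against 3 by exact permutation can go below p = 0.1. DESeq2 1.42.0 and other settings were alternatives. Members and lists were chosen with earlier results of these data known. The genes named are the 9 members, list genes past an adjusted p of 0.05, the 2 genes highest in CPM of a list and Mtor. Also named are the identity genes and the 10 nearest genes with a mean of at least 1 CPM. Gata1, Il13, Tpsb2, Il3ra, Hpgds, Fcer1g, Stxbp2, Il5ra, Lat, Lat2, Pik3cb and Epx were named after their values were seen. So were Ltc4s, Siglecf, Ccr3, Ear6, Lyl1, Lmo2 and the genes with 0 counts.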

Additional observations from a re-analysis of the deposited data

How the results depend on the processing

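All 108 alternative log2 fold changes of the 9 members (12 alternatives each) kept the sign of the reported value, and 107 stayed within the spread between replicates; the exception was Il4 without mTOR-/- replicate 3. The median over the members lay between -1.08 and -0.91 when 1 library was left out in turn. As a description only, since the same contrast chose them, the number of called members was 3 to 5 in all alternatives, all lower. Over all genes, 51 to 234 were called lower in these alternatives. Cpa3 and Hdc were called in each, and Il4 was added by DESeq2 and the exact test. Mcpt8 was called without mTOR-/- replicate 2 and without WT replicate 2 but not in the other 4 fits without 1 library. Kit fell short of the fold without mTOR-/- replicate 2. Gata2 missed the adjusted p without WT replicate 1 and without WT replicate 2. Prg2 fell short of the fold without mTOR-/- replicate 2. Over all genes, 212 were called, against 357 with DESeq2, 379 with edgeR's exact test and 507 with no fold threshold, and 114 to 229 without 1 library; the lowest, 128, 114 and 120, came without WT replicates 1, 2 and 3. Without 1 library the mast cell, cytokine receptor, IgE receptor, eosinophil, megakaryocyte, KEGG and GO lists had 0 to 1 called genes each. In the IgE receptor, KEGG and GO lists that 1 gene was Lat, called without mTOR-/- replicate 3. With no fold threshold there was 1 called gene in each of the granule release, megakaryocyte and T cell lists, 2 in each of the cytokine receptor and lipid mediator lists, and 3 in the GO list. DESeq2 called 2 eosinophil markers and 1 erythroid marker, and the exact test called 1 erythroid marker. A GATA match stood in 6 and an E-box in 3 of the 12 member promoters when the window ended at the start site. Over all promoters the shares were then 26.5% and 17.6%. Of the 19 list genes past an adjusted p of 0.05, 7 (Cyp11a1, Hgf, Prg2, Srgn, Hmox1, Ly6a and Cd14) passed in all 6 fits without 1 library. The cause of these shifts was not tested.

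With the replicate number as a block, 164 genes and 3 members (Cpa3, Hdc and Kit) were called, and the mast cell and cytokine receptor lists had 0. Same-numbered libraries did not deviate together (correlations of -0.0764, -0.0252 and -0.0608), and no mTOR-/- library correlated best with its own number. With 3 libraries per group, centred within each group, this check cannot exclude a pairing by number. The members with the fewest counts (Fcer1a, Ms4a2 and Il4) had the largest SEs, and whether depth set them was not tested.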
